A study of Mus musculus with 4 samples.

Results

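Neural lineage genes are genes that neural progenitors and neurons use: here Sox1, Sox21, Pax6, Nes, Nefl, Ncam1, Tubb3, Map2 and Stmn2. They were chosen by name, with earlier results of these data known. Of the 9, 8 were found among the 32592 genes of the table, each as a single row. Sox1 was not analysed here. All 8 passed the filter on low counts and were among the 14890 genes tested. By mean level in the control-labelled libraries, they stood between percentile 30.3 (Map2) and 94.2 (Stmn2) of those genes. The cells were CCE, embryonic stem cells of a 129/Sv mouse background, grown without feeder cells in serum and leukemia inhibitory factor, which sustains self-renewal. Short hairpin RNAs (shRNAs) were delivered by infection: 2 hairpins against Eif4a2, an RNA helicase of translation, or 2 control hairpins (shLuc and an shEV construct). All cells, controls included, were selected for 3 days in puromycin at 1 µg/mL and collected on day 4.5. Messenger RNA was measured by poly(A) sequencing in 2 samples labelled Eif4a2 knockdown and 2 labelled control, and the labels neither tie a hairpin to a sample nor name separate cultures. The p-values therefore reflect sample-to-sample spread alone, and that spread may be technical.

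The targeted transcript went against its label. Eif4a2 was at 752.5 and 814 normalised counts (CPM on an effective library size) in the knockdown-labelled libraries and at 530.6 and 379 in the control-labelled ones, a log2 change of 0.80 (SE 0.15, limma adjusted p = 0.014, and 0.0581 without a variance trend). Every direction below is therefore that of the knockdown-labelled libraries relative to the control-labelled ones, since no loss of the targeted RNA was measured. Whether labels or columns were exchanged was not tested, and an exchange would turn every fall given here into a rise and every rise into a fall. Recovered reads per library ranged from 4604200 (control 2) to 13681765 (control 1). The stem cell label held: all 16 pluripotent cell markers were expressed, with summed levels of 10523 to 10854 normalised counts in the knockdown-labelled libraries and 14019 to 14483 in the control-labelled ones. In bulk RNA, fewer cells of a type and less RNA per cell cannot be told apart.

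As background, neural fate is a default-like route for mouse embryonic stem cells once self-renewal signals are withdrawn, and bone morphogenetic protein (BMP) signalling restrains it. Early neural progenitors switch on SOX and PAX transcription factors and the intermediate filament nestin. Neurons then replace nestin with neurofilaments, and use class III beta-tubulin, microtubule-associated proteins and stathmins to build axons and dendrites. Many neuronal genes are kept low in stem cells by the repressor REST.

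Promoter sequences are shown for the 3 genes whose 250 bases before a RefSeq start site lay outside annotated untranslated regions: 2 that fell (Sox21, Pax6) and Nes, the member that rose. They come from RefSeq (GRCm38.p6), are written 5′ to 3′ on the gene's strand, and capitals mark the GC box GGGCGG or the CCAAT box, searched on both strands. The end of the Nes window lies within a GENCODE transcript of Nes that starts farther upstream.
Sox21 (chr14:118237031-118237280, minus strand): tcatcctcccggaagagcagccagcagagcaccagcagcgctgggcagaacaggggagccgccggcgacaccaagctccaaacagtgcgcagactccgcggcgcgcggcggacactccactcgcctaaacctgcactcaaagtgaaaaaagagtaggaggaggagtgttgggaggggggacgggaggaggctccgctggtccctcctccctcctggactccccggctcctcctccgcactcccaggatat
Pax6 (chr2:105668646-105668895, plus strand): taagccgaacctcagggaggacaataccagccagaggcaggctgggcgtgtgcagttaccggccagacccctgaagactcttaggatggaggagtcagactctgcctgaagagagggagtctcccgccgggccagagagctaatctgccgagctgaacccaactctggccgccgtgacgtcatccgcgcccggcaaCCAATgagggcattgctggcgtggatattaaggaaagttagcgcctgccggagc
Nes (chr3:87970843-87971092, plus strand): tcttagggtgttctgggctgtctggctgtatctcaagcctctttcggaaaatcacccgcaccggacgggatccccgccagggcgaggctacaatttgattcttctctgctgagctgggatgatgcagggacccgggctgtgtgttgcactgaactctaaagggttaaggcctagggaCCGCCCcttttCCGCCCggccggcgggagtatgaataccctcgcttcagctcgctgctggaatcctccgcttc

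The Nes window held 2 GC boxes, the Pax6 window shown 1 CCAAT box, and the Sox21 window neither. A second Pax6 start site has an entry too, and its window (chr2:105682213-105682462, 47.6% GC, not printed) held neither box. Among 10767 genes tested that had a promoter entry, 60.2% of windows of this length held GGGCGG and 36.6% held CCAAT. The motif CATTGT, which SOX proteins can bind, was in 5.93% of these windows and in none of the 3 shown, while Tubb3 had 2 matches to it. The GC content of the windows was 65.2% for Sox21, 60.8% for Pax6 and 58.8% for Nes, against a median of 60% over all of them. Map2 and Tubb3 also had entries. Ncam1, Nefl and Stmn2 had no entry.

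The comparison between the groups asked how the neural lineage genes stood when Eif4a2 was targeted. In limma, 6 of the 8 genes tested fell in the knockdown-labelled libraries (Sox21, Stmn2, Ncam1, Nefl, Map2 and Pax6), 1 rose (Nes), and Tubb3 missed the threshold of an adjusted p of 0.05. That is 75% of the members falling, against 12.4% of all genes tested (1851 of 14890), and 12.5% rising, against 10.5% (1567 of 14890). Since the members were chosen with earlier results of these data known, these shares are a description. The median log2 change was -0.95 over the 8 members and -0.01 over all genes. In 7 of the 8, Tubb3 included, both knockdown-labelled libraries were below both control-labelled ones, an arrangement found in 34.6% of all genes tested; Nes had the opposite arrangement, found in 32.1%. An exact permutation test of 2 samples against 2 cannot give a p below 0.333, so every call rests on the variance that limma shares across genes.

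**Figure D1:**
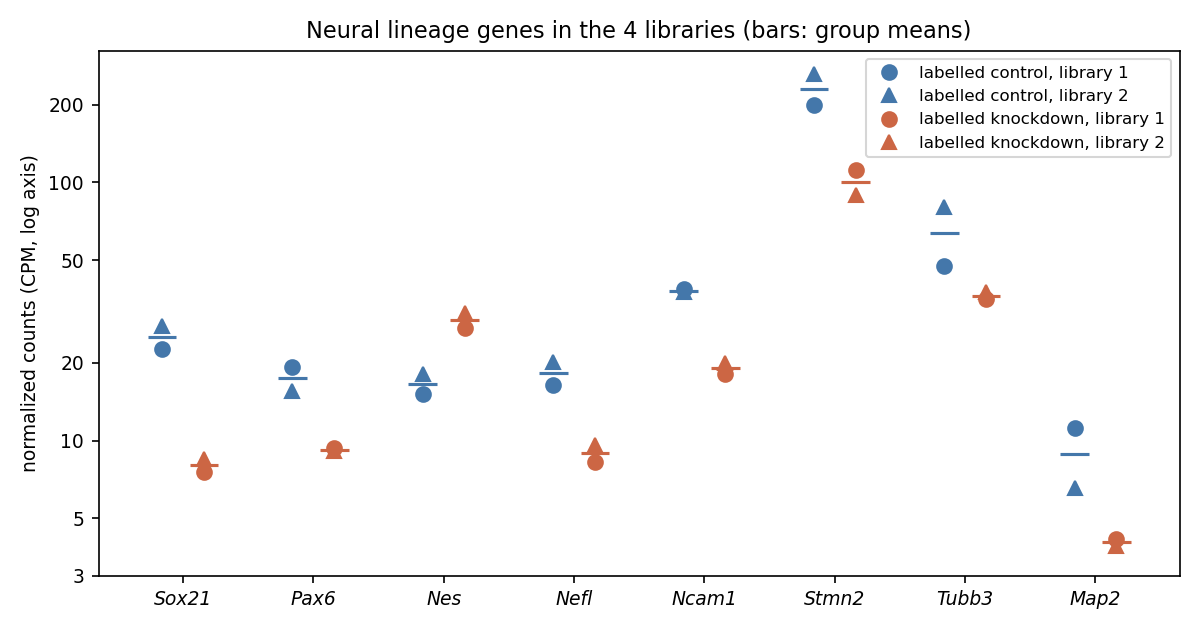
Normalised counts (CPM, log axis) of the 8 neural lineage genes in each library; blue marks the control-labelled libraries, orange the knockdown-labelled ones, circles library 1, triangles library 2, and bars the group means. Nes is the one gene whose knockdown-labelled libraries (27.3 and 31.1) lie above its control-labelled ones (15.1 and 18.1).

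Sox21 and Pax6 are transcription factors of neural progenitors. Sox21 (ENSMUSG00000061517, chromosome 14, 118233232 to 118237030 on the minus strand of GRCm38), a SOXB2 protein that counteracts the activating SOXB1 proteins, showed the largest change of the members. It was at 7.55 and 8.49 normalised counts in the knockdown-labelled libraries and at 22.7 and 27.8 in the control-labelled ones, from 85, 109, 308 and 123 reads. The groups were far apart: the fall was 2.9-fold (log2 change -1.54, SE 0.17, limma adjusted p = 0.00379), the 40th lowest log2 change of the 14890 genes. Gm4675 (named after its values were seen), annotated on the other strand across exons of Sox21, fell too (log2 change -0.94, limma adjusted p = 0.0218; DESeq2 adjusted p = 0.0571, and 0.0586 and 0.243 in limma without knockdown 1 and knockdown 2). Of the 100-base windows of the longest Sox21 transcript, 16.6% also lie in Gm4675 transcripts, and whether strand was used in counting is not given in the sources, so reads there could belong to either gene.

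Pax6 (ENSMUSG00000027168, chromosome 2, 105668900 to 105697364, plus strand), a paired-box factor that directs eye, forebrain and spinal cord progenitors, was at 9.32 and 9.11 against 19.3 and 15.6 normalised counts. The knockdown-labelled libraries were nearly equal and below both controls. The fall was 1.8-fold (log2 change -0.85, SE 0.17, limma adjusted p = 0.0159). With knockdown 1 or knockdown 2 left out Pax6 failed the test (adjusted p = 0.0787 and 0.12), at nearly the same log2 change (-0.86 and -0.83).

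The intermediate filament genes Nes and Nefl moved in opposite directions. Nes (ENSMUSG00000004891, chromosome 3, 87971078 to 87980451, plus strand) encodes nestin, the filament of dividing neural progenitors. It was at 27.3 and 31.1 normalised counts in the knockdown-labelled libraries and at 15.1 and 18.1 in the control-labelled ones. It rose 1.72-fold (log2 change 0.78, SE 0.15, limma adjusted p = 0.0138), and did not pass without knockdown 2 (log2 change 0.69, adjusted p = 0.152). Nefl (ENSMUSG00000022055, chromosome 14, 68083863 to 68089095, plus strand), the light neurofilament subunit that neurons use to set axon calibre, was at 8.26 and 9.58 against 16.5 and 20.1. It fell 1.94-fold (log2 change -0.96, SE 0.17, limma adjusted p = 0.0123), and did not pass without knockdown 1 (log2 change -0.86, adjusted p = 0.0737). Nefm, the medium subunit (named after its values were seen), overlaps exons of Nefl on the opposite strand, and 30.8% of the 100-base windows of Nefl also lie in annotated Nefm transcripts. Nefm itself was at 7.19, 6.93, 8.98 and 10.4 in knockdown 1 and 2 and control 1 and 2 and did not pass (log2 change -0.40, limma adjusted p = 0.137).

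Ncam1 (ENSMUSG00000039542, chromosome 9, 49502136 to 49798925, minus strand) encodes the neural cell adhesion molecule, an immunoglobulin-family surface protein. It was at 18.1 and 19.9 normalised counts in the knockdown-labelled libraries and at 38.6 and 37.6 in the control-labelled ones. The control-labelled libraries differed by 0.04 on the log2 scale, less than for any other member, and it fell 1.95-fold (log2 change -0.97, SE 0.12, limma adjusted p = 0.00507). The ratio of Nes to Ncam1 within a library does not depend on how libraries are scaled. It was 1.51 and 1.56 in the knockdown-labelled libraries and 0.391 and 0.482 in the control-labelled ones, so the order of their counts was opposite in the 2 groups.

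The microtubule genes were Stmn2, Tubb3 and Map2. Stmn2 (ENSMUSG00000027500, chromosome 3, 8509360 to 8561606, plus strand), also called SCG10, encodes a tubulin-binding stathmin of growth cones. It was at 111.2 and 88.9 normalised counts in the knockdown-labelled libraries and at 199.2 and 261.8 in the control-labelled ones. The groups did not overlap although both spread, and the fall was 2.28-fold (log2 change -1.19, SE 0.15, limma adjusted p = 0.00548). No 100-base window of its longest transcript was shared with another annotated gene, nor any of Map2, Nes, Pax6 or Tubb3.

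Tubb3 (ENSMUSG00000062380, chromosome 8, 123411424 to 123422015, plus strand) encodes beta-tubulin class III, a tubulin of neurons. In these stem cells its control-labelled mean stood at percentile 72.3 of the genes tested. It was at 35.4 and 37.5 normalised counts in the knockdown-labelled libraries and at 47.2 and 80.3 in the control-labelled ones. Control 2 was 1.7 times control 1, and Tubb3 did not pass (log2 change -0.74, SE 0.22, 95% interval -1.27 to -0.22, limma adjusted p = 0.0515). The log2 change was -0.37 without control 2 (adjusted p = 0.00167) and -1.12 without control 1 (adjusted p = 1.07e-28). Those 2 fits take their spread from the knockdown-labelled pair alone. Tubb3 passed in the edgeR quasi-likelihood test on recovered reads (adjusted p = 0.0426) and in DESeq2 (adjusted p = 0.00729).

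Map2 (ENSMUSG00000015222, chromosome 1, 66175273 to 66442583, plus strand) encodes the microtubule-associated protein of dendrites. It rested on few reads: 47 and 50 in the knockdown-labelled libraries and 152 and 29 in the control-labelled ones, or 4.17, 3.89, 11.2 and 6.56 normalised counts. It fell 1.91-fold (log2 change -0.93, SE 0.26, limma adjusted p = 0.0411), and the log2 change was -1.28 without control 2 and -0.59 without control 1, which differed from each other by 1.7 times in level. Of all the members called it was the least stable: it did not pass with library size as the only scaling (adjusted p = 0.07), without a filter (0.0765), without a variance trend (0.0704), after thinning reads to equal totals (0.0623), or without knockdown 1 (0.116) or knockdown 2 (0.19).

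By the authors' deposited table, all 8 genes had the same direction as here and an adjusted p below 0.05. The share of all genes below that threshold there is not given here. There the authors' deposited table gives its largest log2 fold change among them for Sox21 (-1.62), gives 0.85 for Nes, and for Tubb3 gives -0.78 with an adjusted p of 0.00287.

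Levels of different genes can be compared per length. Per kilobase of annotated exon in the control-labelled libraries, the order of mean levels was Stmn2 (41.1), Tubb3 (34.1), Sox21 (6.65), Nefl (5.42), Ncam1 (4.39), Nes (2.59), Pax6 (1.49) and Map2 (0.54 normalised counts per kb). Stmn2 and Tubb3 overlapped between their 2 libraries; the other neighbours in this order did not, though Sox21 and Nefl nearly met (5.97 and 5.96). In the knockdown-labelled libraries Tubb3 (19.5) and Stmn2 (17.9) overlapped again, followed by Nes (4.55), Nefl (2.64), Ncam1 (2.2), Sox21 (2.11), Pax6 (0.788) and Map2 (0.245); Ncam1 and Sox21 overlapped as well. Nes stood at place 6 in the control-labelled libraries and at place 3 in the knockdown-labelled ones, and Sox21 at place 3 and, level with Ncam1, at place 6. The order depends on the length used. Per kilobase of the longest transcript, an alternative chosen after seeing the data, Nes stood at places 7 and 3, below Pax6 in the control-labelled libraries (2.71 against 3.94), and Sox21 at places 3 and 6, where it overlapped Pax6. For comparison, Sox2, the SOXB1 factor shared by stem cells and neural progenitors, was at 651.6 normalised counts per kb in the control-labelled libraries.

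Transcript GC content moved with the change across all genes. With the genes in 5 bins of equal size by GC content, 19.3% fell and 4.26% rose in bin 1, the lowest, and 6.18% fell and 19% rose in bin 5, the highest. Stmn2 (41.3% GC) was in bin 1, Map2 (47.8%) in bin 2, and Nefl (48.8%), Pax6 (49.3%) and Ncam1 (49.9%) were in bin 3. Sox21 (58.3%) and Tubb3 (57.9%) were in bin 5, whose median log2 change was 0.17, and both were lower. Nes (55.5%) was in bin 4 (median 0.07). After a correction of each library for GC content, all 7 members that had been lower fell, Tubb3 included (log2 change -0.93, limma adjusted p = 0.023), and Nes rose (log2 change 0.61, adjusted p = 0.0257).

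**Figure D2:**
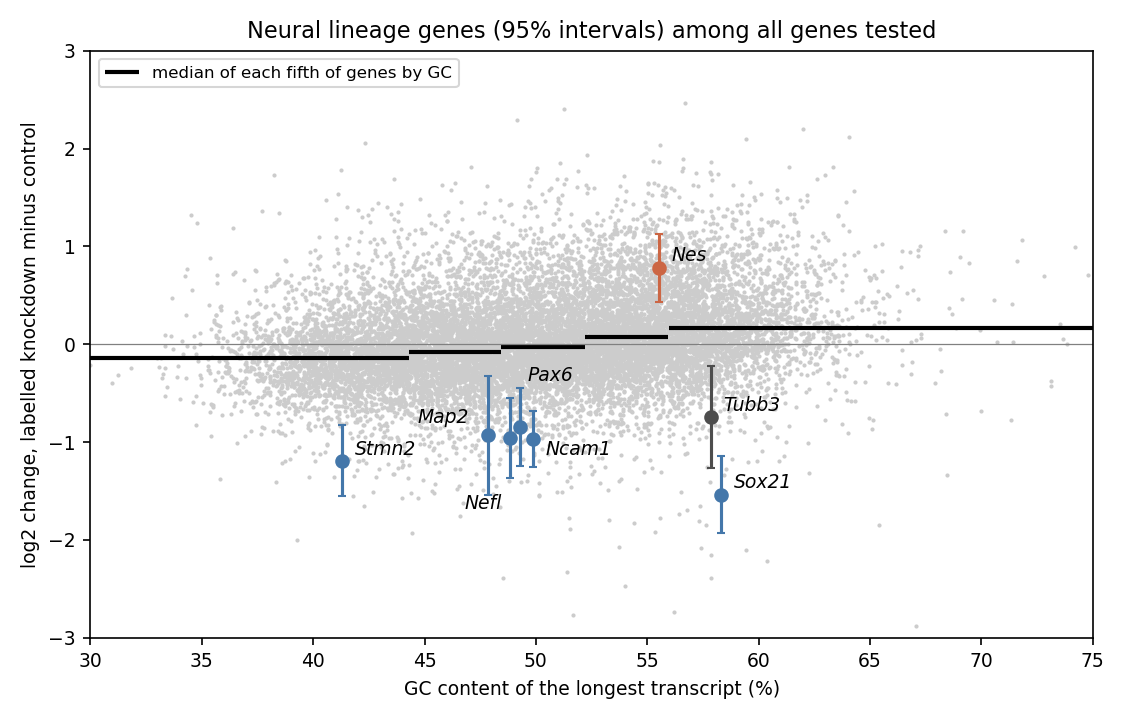
Log2 change (knockdown-labelled minus control-labelled, vertical) against the GC content of the longest transcript in % (horizontal) for all genes tested in grey, within the axis ranges drawn; black bars are medians of the 5 GC bins, and coloured points the 8 members with 95% limma intervals (blue fell, orange rose, dark grey did not pass). Sox21 (-1.54) and Tubb3 (-0.74) lie in a bin whose median is 0.17.

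Of 23 family relatives of the members tested, 4 rose and 4 fell (median log2 change -0.20). The balance moved with the setting: 2 rose and 6 fell after GC correction, and 5 rose and 2 fell with library size only. Without control 1 the counts were 5 and 10 and without control 2 they were 6 and 10, while without knockdown 1 they were 1 and 1. Without knockdown 2 they were 1 and 0 in limma (3 and 3 at an unadjusted p under 0.05). Sox2 fell from 1386 and 1294 normalised counts in the control-labelled libraries to 964 and 936.9 in the knockdown-labelled ones (1.41-fold, log2 change -0.49, limma adjusted p = 0.0114), while Sox3, another SOXB1 gene, was at 6.48, 6.54, 5.37 and 10.9 in knockdown 1 and 2 and control 1 and 2 and did not pass (adjusted p = 0.635; named after its values were seen). Among filament genes, Des, the muscle filament desmin, rose 1.66-fold and Synm, synemin, which co-assembles with desmin and vimentin, rose 1.7-fold. Among beta-tubulins Tubb2a, a neuron-enriched isotype, rose 1.4-fold (limma adjusted p = 0.0215), from 36.1 and 32.8 to 48.6 and 48.4. Tubb2a did not pass after GC correction (adjusted p = 0.064). Without a variance trend neither Tubb2a (adjusted p = 0.0539) nor Synm (0.0591) passed, and without either knockdown library neither Sox2, Des nor Tubb2a did.

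Other neural genes were counted over 8 lists that leave the members out: 243 genes in the table, of which 159 were tested, 28 rose (17.6%, against 10.5% of all genes) and 22 fell (13.8%, against 12.4%), with a median log2 change of 0.08. After GC correction 18 rose and 29 fell. These lists, too, were chosen with earlier results of these data known.

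Among genes of the neuronal cytoskeleton, more fell than rose. Of 28 tested, 10 fell (35.7%) and 3 rose (10.7%), with a median log2 change of -0.42; after GC correction 13 fell and 0 rose in limma (2 rose at an unadjusted p under 0.05), and with library size as the only scaling 7 fell and 5 rose. Dpysl3, Dpysl2 and Dpysl5, of the collapsin response mediator family that links guidance cues to microtubules, fell 2.93-fold, 2.88-fold and 2.03-fold. Map1b, an axonal microtubule-associated protein, went from 176.6 and 180.3 normalised counts in the control-labelled libraries to 90.1 and 75.6 (2.15-fold, limma adjusted p = 0.00271). These 4 passed in all 16 alternative settings. Of the list, 16 genes fell without control 1, 15 without control 2, 7 without knockdown 1 and 6 without knockdown 2.

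Of 36 transcription factors of neurons, 10 passed the filter on low counts, some through the knockdown-labelled group alone, so their counts are a description. In limma 5 of the 10 rose and 0 fell. The counts were the same in edgeR, in DESeq2 and at an unadjusted p under 0.05, all of which use the same filtered genes. Without a filter 32 were tested, 5 rose and 1 fell, and the median log2 change was 0.15. Without knockdown 1 or knockdown 2, 2 and 3 of the 10 rose. Insm1, a zinc finger factor of newborn neurons and endocrine cells, was at 6.39 and 7.09 normalised counts in the knockdown-labelled libraries and at 0.957 and 0.453 in the control-labelled ones (log2 change 2.20). Lmx1b, a LIM homeodomain factor of midbrain and hindbrain neurons, was at 3.37 and 3.35 against 0.442 and 0 (log2 change 1.86). Hes6 rose 1.56-fold and Phox2a 1.75-fold, but neither passed after GC correction (limma adjusted p = 0.0649 and 0.0854). The change also moved with level when all genes tested were put in 5 bins by mean level. In the lowest bin 12.6% rose and 1.98% fell (median log2 change 0.24). In the highest bin 6.95% rose and 26% fell (median -0.13). The part of level in the counts of this list was not tested.

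Among 25 transcription factors of neural progenitors other than the members, 3 rose and 4 fell (median log2 change 0.10). With 1 library left out, 2 to 7 rose and 1 to 7 fell, the fewest without knockdown 2 (2 and 1) and the most that fell without control 1 (6 and 7). Otx2, which specifies forebrain and midbrain and is also active as stem cells leave the naive state, rose from 53.6 and 53.2 to 107.6 and 104.9 normalised counts (1.97-fold, limma adjusted p = 0.00256). Rfx4 rose 3.48-fold, from 2.21 and 1.36 to 8.35 and 8.8. Sox11, a SOXC factor of young neurons, fell 1.95-fold, and Zic5 fell 1.69-fold. Neither knockdown library could be left out without Zic5 failing the test (adjusted p = 0.0793 and 0.0973), and Sox11 failed in one of those fits (0.0961).

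Of 33 synaptic and neurotransmission genes, 9 rose and 2 fell (median log2 change 0.11), but after GC correction 7 rose and 5 fell, and without knockdown 2 the counts in limma were 0 and 0 (8 rose and 2 fell at an unadjusted p under 0.05). Without knockdown 1, 2 rose and 1 fell, and without control 1, 14 rose and 4 fell. In edgeR 10 rose and 3 fell, and in DESeq2 6 rose and 2 fell. Slc17a7, a vesicular glutamate transporter, rose from 9.05 and 8.15 to 18.5 and 20.4 normalised counts (2.13-fold), and Scn3a, a sodium channel subunit, rose 2.22-fold. Neither passed without knockdown 2 (adjusted p = 0.0652 and 0.103). Of 23 adhesion and guidance genes, the class of Ncam1, 3 rose and 3 fell. After GC correction 1 rose and 3 fell, without control 1 the counts were 8 and 4, and without either knockdown library 2 fell. Ntn1, the guidance cue netrin-1, fell 2.64-fold, from 115.5 and 129.4 to 48.1 and 43.3, and Cntn2, an immunoglobulin-family axonal adhesion molecule, fell 2.21-fold. Glial genes (2 rose and 1 fell of 15), neural crest genes (2 rose and 1 fell of 13) and neuronal RNA-binding proteins (1 rose and 1 fell of 12) had few calls with all libraries in. Without control 1, 7 glial genes rose and 3 fell, and 4 neural crest genes fell. Without control 2, 2 RNA-binding genes rose and 6 fell. In the last list Ptbp2, the neural polypyrimidine tract binding protein, rose 1.62-fold, and did not pass without knockdown 2 (adjusted p = 0.108).

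**Figure D3:**
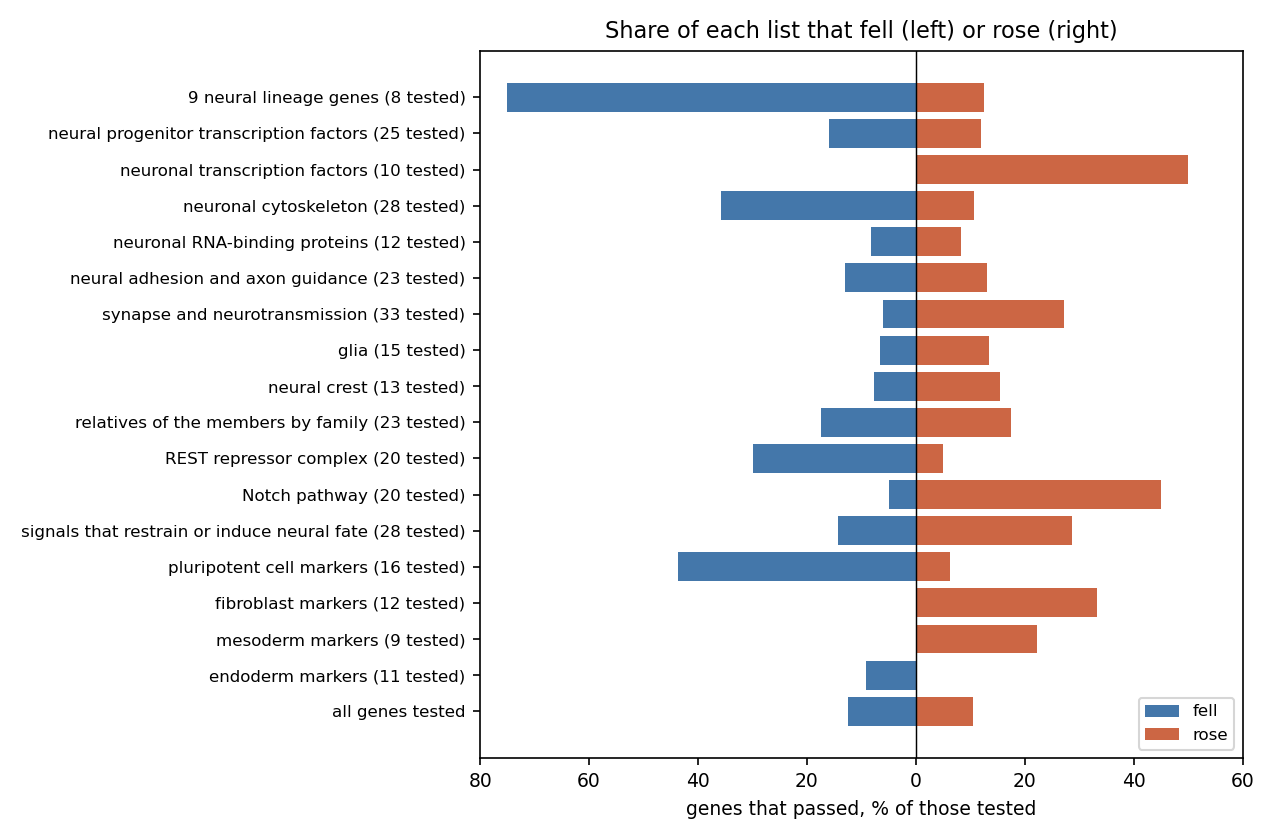
Share of the genes tested (horizontal axis, %) that fell (blue, left of 0) or rose (orange, right of 0) in limma, one row per gene list, with the members in the top row and all genes tested in the bottom row. Of the members 75% fell and 12.5% rose, against 12.4% and 10.5% of all genes.

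REST and its cofactors repress neuronal genes in stem cells. Rest was at 914.6 and 879.5 normalised counts in the knockdown-labelled libraries and at 1058 and 1188 in the control-labelled ones. The change was 1.25-fold and at the threshold (log2 change -0.32, SE 0.09, limma adjusted p = 0.0472), and Rest did not pass in 9 of 16 alternatives, GC correction (0.119) and library size only (0.11) among them. Of the 20 genes of the complex list, 1 rose (5%, against 10.5% of all genes) and 6 fell (30%, against 12.4%), with a median log2 change of 0.03. The median control level of the list was 92.6 normalised counts, and in the highest of the 5 bins by mean level 26% of all genes fell. The part of level in these counts was not tested. With library size as the only scaling, 4 rose and 1 fell. Without knockdown 1, 1 fell, and without knockdown 2 the counts in limma were 0 and 0 (1 rose and 2 fell at an unadjusted p under 0.05). Of the same list, edgeR had 1 that rose and 4 that fell, and DESeq2 1 and 3. Ptbp1, the paralogue of Ptbp2 in non-neural cells, fell 1.5-fold, from 643.5 and 740.9 to 469.8 and 449.9 normalised counts, and did not pass without knockdown 2 (adjusted p = 0.0718).

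In the Notch pathway, which holds neural progenitors undifferentiated, 9 of 20 genes rose and 1 fell (median log2 change 0.32). Jag2, a ligand, rose 2.79-fold, from 32.3 and 26 to 78.8 and 86.7 normalised counts, and Nrarp, a target and feedback inhibitor, rose 2.43-fold. Rbpj, the DNA-binding partner of Notch, fell 1.37-fold (limma adjusted p = 0.0145), but did not pass without knockdown 1 (0.0937), knockdown 2 (0.147) or a variance trend (0.0622). After GC correction 5 of these genes rose and 2 fell, and without a variance trend 4 rose. Without knockdown 1 or knockdown 2, 3 and 4 rose. Among 28 genes of other signals that restrain or induce neural fate, 8 rose and 4 fell (4 and 2 without knockdown 2, 13 and 7 without control 2). Bmp4, a ligand that restrains it, fell 2.37-fold, from 66.8 and 74 to 29.3 and 28.7, while Id1, a BMP target, rose 1.67-fold. The hedgehog targets Gli1 and Ptch1 rose 2.68-fold and 1.72-fold.

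Markers of other cell types were counted between the same groups, and their part in the changes of the members was not tested. Over all genes tested, 10.5% rose and 12.4% fell. Of the 16 pluripotent cell markers, 7 fell (43.8%) and 1 rose (6.25%). Their median control level was 838 normalised counts, and in the highest of the 5 bins by mean level 26% of all genes fell. Zfp42 fell from 968.4 and 1056 to 486.7 and 481 normalised counts. Of 18 fibroblast markers, 12 were tested, 4 rose and 0 fell in limma, as in DESeq2, while edgeR had 5 and 0 and an unadjusted p under 0.05 gave 7 and 0. With 1 library left out 1 to 7 rose. The summed level of the 18 was 362 and 395.5 in the knockdown-labelled libraries and 221.9 and 185.8 in the control-labelled ones. The median log2 change of the 12 tested was 0.61. Of the 18, Dcn and Lum (named after their values were seen) were at 0 in every library. Of 9 mesoderm markers 2 rose (22.2%) and 0 fell. Of 11 endoderm markers 0 rose and 1 fell (9.09%) in limma, as in edgeR. The endoderm median log2 change was 0.05, and Afp and Ttr were at 0.

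Over the 4 libraries, Nefl and Ncam1 had the most similar pattern of any pair of members, with a distance of 0.224 between their centred log2 values, and Nes and Sox21 the least (2.32). The nearest other genes were Fbxo31 and Nod1 for Nes, Xrcc6 and Nkx6-3 for Sox21, Dcbld2 and Prkaa2 for Pax6, and Trh and Nsun2 for Stmn2. They were Pdyn and Ccdc127 for Ncam1, mt-Rnr2 and Ripply3 for Nefl, and Chac2 and Tmem50b for Map2. With 4 libraries many genes share a pattern: 148 genes lay within a distance of 0.2 of Nes and 106 of Pax6, but 5 of Sox21.

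**Figure D4:**
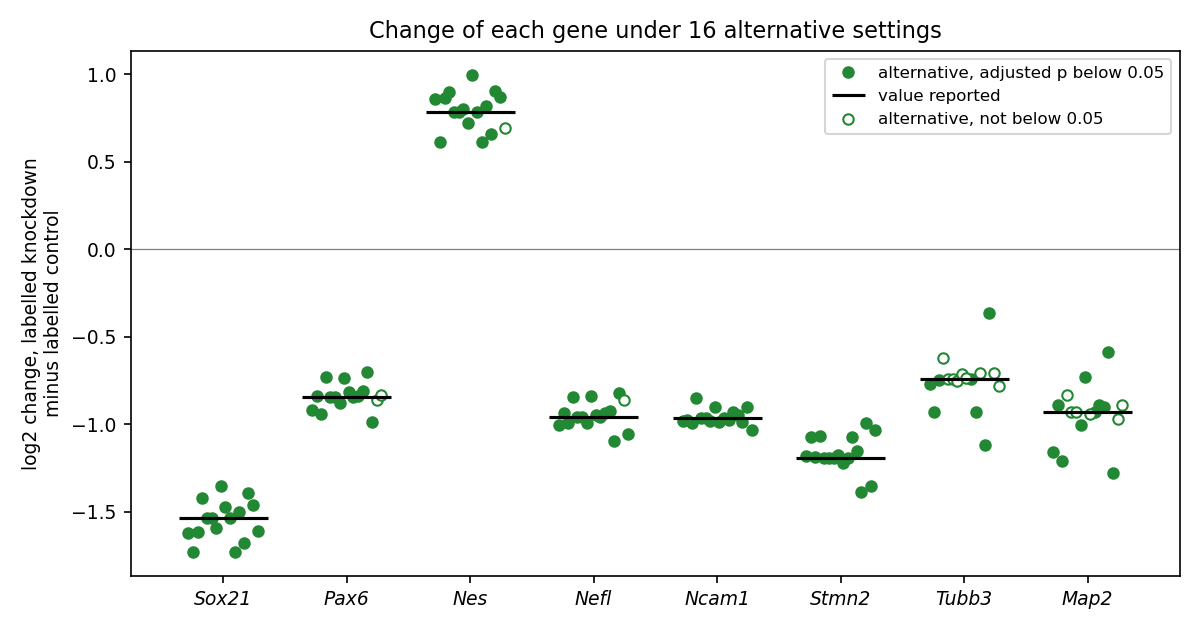
Log2 change of each member (vertical axis, knockdown-labelled minus control-labelled) with the reported value as a black bar and the 16 alternative settings as points, filled where the adjusted p was below 0.05 and open where it was not. Sox21, Ncam1 and Stmn2 have filled points only, Map2 has 6 open ones, and no point lies across 0 from the reported value. Because the groups of each member did not overlap, leaving out a library could not move a point across 0.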

How the data were processed

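Poly(A) RNA of 4 samples was sequenced in single-end reads. The submitters' processing notes name Bowtie2 2.3.4.3, SAMtools 1.9, HTSeq 0.11.2, edgeR 3.26.8 and the build mm9; the sources used here give neither the annotation release nor the strand setting. The authors' deposited table gives a normalised signal per gene and library, which is CPM on an effective library size, and from it whole reads were recovered for 100% of values within a tolerance of 0.001. The authors also deposited log2 fold changes and log2 abundances, a likelihood ratio score, and p-values with adjusted p-values. Here limma 3.58.1 (R 4.3.3) with a variance trend was run on log2(value + 1), and fold changes are on that scale, which understates changes of low genes. Genes were kept by the edgeR 4.0.16 filter on recovered reads, with Benjamini-Hochberg adjustment over all 14890. In data simulated for this comparison over 14890 genes, 48 of 50 genes raised 2-fold, 23 of 50 raised 1.5-fold and 40 of 50 lowered to 0.5 times were recovered, with 8 calls among unchanged genes. The simulation kept the depth of each library, gave all of them the same spread beyond counting noise, and changed no gene of very low level. It therefore lacks any larger spread of the control-labelled pair beyond that of read depth, and its recovery need not hold for these data. Annotation came from GENCODE (GRCm38), not the authors' build. Alternatives included edgeR's quasi-likelihood test and DESeq2 1.42.0. The members and lists were chosen with earlier results of these data known. Named genes are the members, Eif4a2, Sox2 and Rest, up to 4 called genes of smallest p per list, and the 2 nearest genes of each called member. Genes outside this rule (Gm4675, Nefm, Sox3, and markers at 0) were named after their values were seen.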

Additional observations from a re-analysis of the deposited data

How the results depend on the processing

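Of 16 alternatives, none turned the direction of a member, but several could not have done so. Because the groups did not overlap in any member, leaving out a library or changing the pseudocount could not turn it. The filter, the variance trend and the block left each log2 change as it was. The count of members that fell (6) ranged from 3 to 7 when 1 library was left out, with 3 without knockdown 1 and 4 without knockdown 2, and the count that rose was 0 to 1. Over all genes, 1851 fell: 996 with library size as the only scaling, 864 without a variance trend, and 394 to 3940 with 1 library left out. Of the 1567 that rose, DESeq2 called 967, and leaving out 1 library gave 259 to 3784. Library size alone moved the median of all genes from -0.01 to 0.10 on the log2 scale, and 2152 then rose. Of other neural genes, 22 fell, against 14 in DESeq2, 14 without a variance trend and 11 to 41 with 1 library left out; 28 rose, against 18 after GC correction and 6 to 49 with 1 library left out. With the replicate number as a block, 7 members fell, 1 rose, and Tubb3 passed (limma adjusted p = 3.72e-05). Of all genes, 2380 fell and 2252 rose with the block. With the block and GC correction together, 34 other neural genes fell. The samples share only a number: deviations of same-numbered samples correlated at 0.036. Map2 had the fewest reads of the members, 29 in control 2. The control-labelled pair differed more than the knockdown-labelled pair (median absolute log2 difference 0.198 against 0.0955), and limma pools the spread of both. A chi-square per degree of freedom on recovered reads, which takes read depth into account, was 12.8 for the control-labelled pair and 1.95 for the knockdown-labelled pair. Fits without a control library take their spread from the knockdown-labelled pair alone, and fits without a knockdown library from the control-labelled pair. The causes of the differences between settings were not tested.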
